A study of Mus musculus with 2 samples.

Results

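The short transcripts of cultured bone marrow mesenchymal stem/progenitor cells were examined in 2 RNA sequencing libraries. A transcript was taken as short when its exons summed to under 300 nt. That rule, which uses no expression value, found 1505 of the 45543 transcripts listed identically for both libraries (3.30%), in 1450 loci. The cells came from the bone marrow of CD-1 mice aged 3 months, and the molecule is given as total RNA. Any selection of RNA before sequencing is not described here, so how far small RNAs were sampled is open. One library carries the genotype label PPAR-flox (titled PPAR-f/f, floxed Pparg) and the other PPAR KO (PPARg-deficient). PPARg is the nuclear receptor that directs fat cell formation. The labels name neither the Cre driver, nor the floxed exons, nor the number of animals behind each culture. With 1 library per group no difference below has a replicate check or a test, and every count of higher or lower transcripts is a count by size. Pparg itself was at 6.86 FPKM in the floxed and 1.39 FPKM in the deficient library (log2 fold -1.72, deficient over floxed, on values plus 1 FPKM). Fragments implied by the deposited values, as explained below, summed over all listed transcripts to 6.81 M in the floxed and 7.71 M in the deficient library. Library totals fitted from the same values, used for scaling, were 9.05 M and 9.34 M. Both are inferred and not counts of sequenced fragments. These are bulk cultures, so fewer cells of a type and less RNA per cell cannot be told apart.

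Several kinds of RNA are naturally this short. MicroRNA hairpins are cut into mature microRNAs that repress messenger RNAs. Box C/D and box H/ACA small nucleolar RNAs (snoRNAs) guide the methylation and pseudouridylation of ribosomal RNA and are usually made from the introns of host genes. Processed pseudogenes are copies of messenger RNAs pasted back into the genome, so their sequence is close to that of the parent gene. An assembler can also report short pieces of longer RNAs, or any small island of reads, as a transcript.

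The sequences that matter most here are those of short transcripts lying in pseudogenes, shown beside the coding gene each one resembles. Among the pairs with bases that line up without a gap, 3 were chosen after their values were seen, because they span high to low read numbers. Gm7266 at chr1:146159378-146159551 (mm9, no strand given) resembles Rpl32, which encodes a protein of the large ribosomal subunit. Gm14706 at chrX:74165292-74165412 resembles Rps27l, which encodes a ribosomal S27-like protein. Gm45113 at chr7:127767769-127767875 resembles Tomm7, which encodes a subunit of the mitochondrial import channel. Sequences are from GENCODE M21 transcripts (GRCm38), read on the gene's strand, and capitals mark the bases that differ within a pair.
Gm7266: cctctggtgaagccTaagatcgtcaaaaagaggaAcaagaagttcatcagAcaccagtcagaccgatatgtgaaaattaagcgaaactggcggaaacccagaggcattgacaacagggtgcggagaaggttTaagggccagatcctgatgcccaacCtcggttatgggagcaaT
Rpl32: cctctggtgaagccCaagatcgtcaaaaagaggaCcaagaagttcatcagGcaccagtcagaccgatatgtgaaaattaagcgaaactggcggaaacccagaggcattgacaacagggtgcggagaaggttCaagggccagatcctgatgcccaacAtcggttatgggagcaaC
Gm14706: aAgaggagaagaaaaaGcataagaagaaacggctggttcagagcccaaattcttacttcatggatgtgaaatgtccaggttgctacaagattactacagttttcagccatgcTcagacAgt
Rps27l: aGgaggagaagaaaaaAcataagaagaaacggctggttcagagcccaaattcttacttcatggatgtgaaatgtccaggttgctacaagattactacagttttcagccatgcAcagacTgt
Gm45113: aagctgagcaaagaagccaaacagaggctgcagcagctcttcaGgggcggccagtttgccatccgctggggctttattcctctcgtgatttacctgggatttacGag
Tomm7: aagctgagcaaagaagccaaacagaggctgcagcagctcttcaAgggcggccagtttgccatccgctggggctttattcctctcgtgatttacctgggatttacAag
The first pair differed at 6 of 174 bases, the second at 4 of 121 and the third at 2 of 107. All 3 stretches lay within the coding part of the gene, at coding bases 16 to 189 of Rpl32, 38 to 158 of Rps27l and 7 to 113 of Tomm7.

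From RefSeq (GRCm38.p6), the Mir703 hairpin is shown because it was the only microRNA hairpin to reach 1 FPKM, with the mature microRNA in capitals. It is followed by that mature microRNA with its seed, the bases 2 to 8 that pair with targets, in capitals. The mature form of Mir27b, a microRNA known to target Pparg messenger RNA, is added for that role and was chosen after its values were seen.
Mir703: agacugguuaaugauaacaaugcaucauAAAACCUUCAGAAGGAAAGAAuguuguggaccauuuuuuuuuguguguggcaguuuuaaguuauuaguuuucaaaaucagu
mmu-miR-703: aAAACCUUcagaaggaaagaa
mmu-miR-27b-3p: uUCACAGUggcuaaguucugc

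The 1505 short transcripts fell into 3 kinds. The largest, 797 transcripts (53.0%), had a single exon and a strand, with a median length of 84 nt. Another 620 (41.2%) had a single exon and no strand, with lengths from 101 to 299 nt and a median of 183 nt. The remaining 88 (5.85%) had several exons, with a median of 258 nt. Most short transcripts stood alone: 1358 lay in loci that hold no transcript of 300 nt or more. Chromosome 2 held the most (171), 95 of them inside introns, followed by chromosomes 7 and 12 with 116 each.

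The kinds differed in whether they carried any signal. Of the strandless transcripts, 612 of 620 (98.7%) were above 0 FPKM in at least 1 library. Only 30 of the 797 stranded single-exon transcripts (3.76%) were, and 53 of the 88 multi-exon transcripts (60.2%). Length set a sharp edge: none of the 645 transcripts of 100 nt or less was above 0, and the shortest one with a signal had 101 nt. Strandless transcripts began at exactly that length. Of the 155 stranded single-exon transcripts of 101 nt or more, 30 (19.4%) were above 0, and 27 reached 1 FPKM in at least 1 library. Whether RNAs of 100 nt or less were present in the cells cannot be read from these values.

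**Figure D1:**
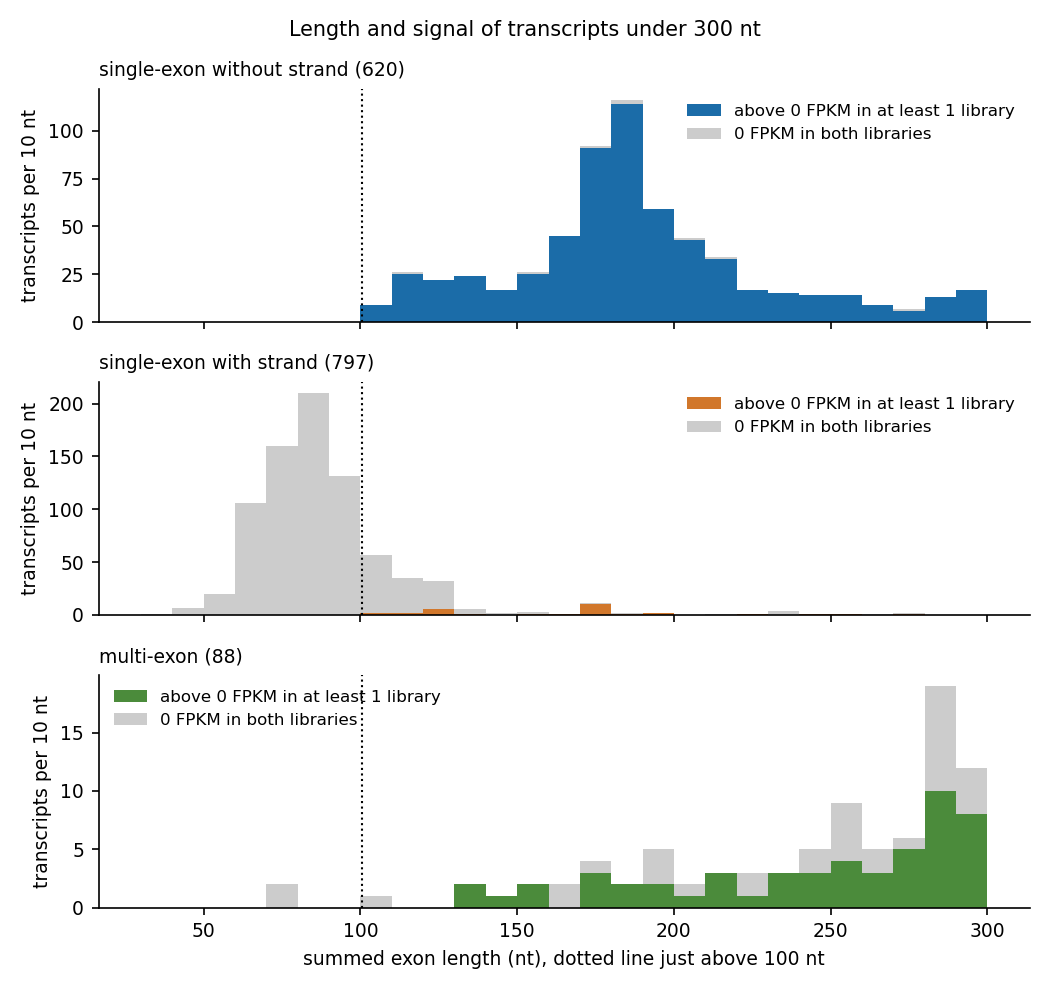
Number of short transcripts per 10 nt of summed exon length, in 1 panel for each kind, with colour for those above 0 FPKM in at least 1 library and grey for those at 0 in both. Grey fills everything left of the dotted line at 100 nt, and the strandless transcripts gather between 160 and 199 nt, where 312 of 620 lie.

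FPKM gives the fragments of a transcript scaled by its usable length and by the library total. The deposited upper bound allowed the number of fragments behind most values to be recovered. It lay above the FPKM by 2 × FPKM divided by the square root of the fragment number. Lower bounds were not used. They stood at 0 for 136 of 660 short transcripts above 0 in the floxed library and 134 of 658 in the deficient library. At loci with 1 transcript, 57.5% of short transcripts in the floxed library and 61.5% in the deficient library came out as whole numbers within 0.02, and the others at fractions. These implied fragments were computed after the data were seen. They showed what 1 fragment was worth at each length. At 299 nt, 1 fragment gave 1.08 FPKM in both libraries. At 200 nt it gave 4.23 FPKM in the floxed and 4.59 FPKM in the deficient library, and at 150 nt 22.6 and 30.1 FPKM. At 120 nt the values were 233 and 405 FPKM, and at 101 nt 28926 and 57735 FPKM. The scale thus also differed between the libraries: the same single fragment was worth 2.0 times as much FPKM in the deficient library at 101 nt, 1.33 times at 150 nt and 1.09 times at 200 nt. Coverage as deposited followed the same scale, with a median FPKM per unit of coverage of 1.10 in the floxed and 1.07 in the deficient library for short transcripts, so coverage times length is no independent count of sequenced bases.

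**Figure D2:**
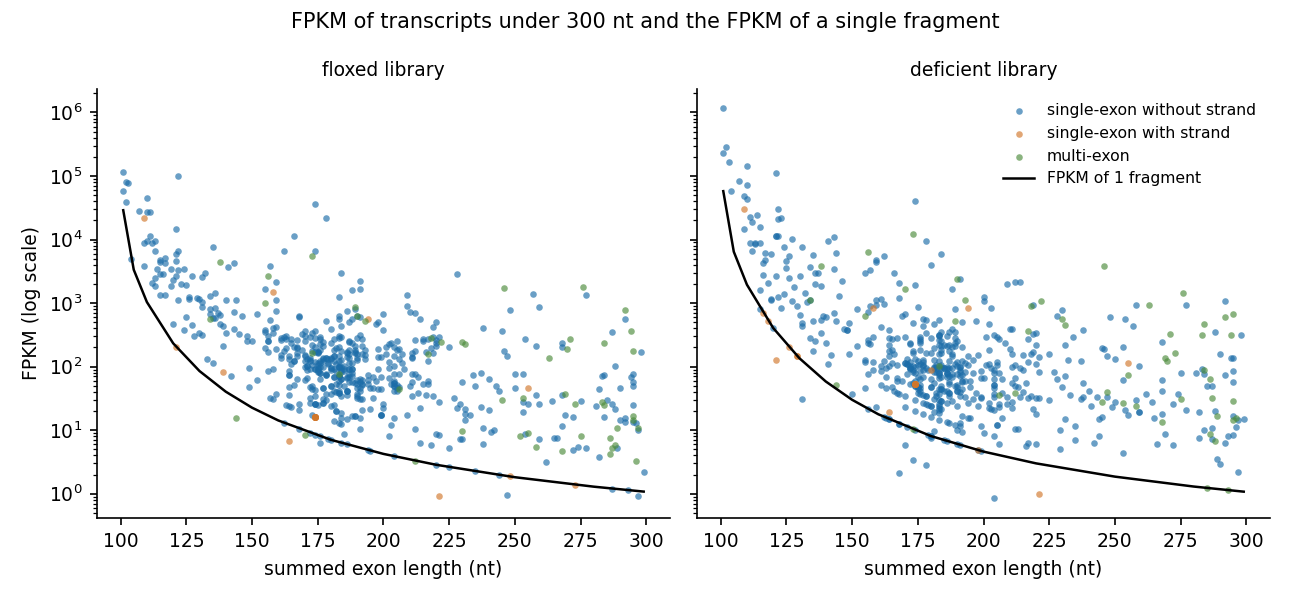
FPKM (log scale) of each short transcript against its summed exon length, in the floxed library (left) and the deficient library (right), coloured by kind, with values under 0.01 FPKM left out. The black line gives the FPKM of 1 fragment, which falls from 28926 (floxed) and 57735 (deficient) at 101 nt to 1.08 at 299 nt, and many short transcripts lie just above it.

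Seen in FPKM, short transcripts held most of both libraries. They summed to 61.6% of all FPKM in the floxed and 81.7% in the deficient library. The 10 highest in each library alone held 36.7% and 63.4% of it. Seen in implied fragments, they held 0.551% of the floxed sum over all transcripts (37505 fragments) and 0.498% of the deficient sum (38409 fragments). The 10 highest short transcripts rested on 4998 fragments in the floxed and 516 in the deficient library. Gm7266 alone held 4348 of the 4998. It had 4005 fragments in the deficient library but was not among the 10 highest there. Coverage times length gave 8.57% and 18.5%, between the other measures. The share was higher in the deficient library by FPKM and by coverage, and slightly lower there by fragments.

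**Figure D3:**
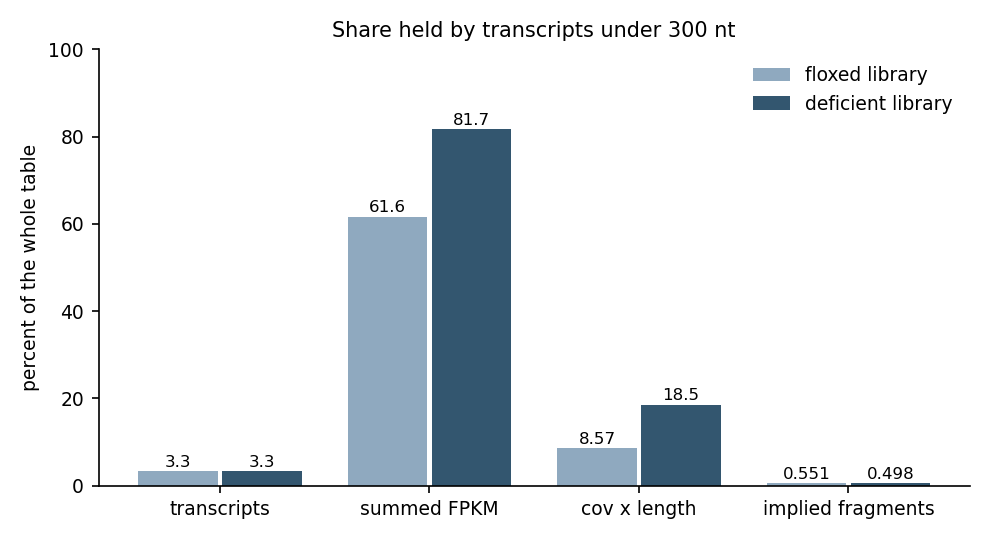
Percent of the whole table held by transcripts under 300 nt, by number of transcripts, summed FPKM, coverage (cov) times length and implied fragments, with light bars for the floxed and dark bars for the deficient library. The same transcripts hold 81.7% of FPKM and 0.498% of fragments in the deficient library.

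The transcripts with the highest FPKM were all strandless and mostly rested on few fragments. The highest in both libraries was a transcript of 101 nt at chr19:35175548-35175648, in no annotated gene, between Kif20b and Htr7. It was at 115703 FPKM from 4 fragments in the floxed and 1154691 FPKM from 20 fragments in the deficient library (log2 FPKM fold 3.32). Its deposited bounds, 0 to 231407 and 638297 to 1671084 FPKM, did not overlap. A transcript in Gm6340, whose closest coding gene is Cks1brt, was at 57852 and 230938 FPKM on 2 and 4 fragments, with bounds that overlapped. In Phospho2 on chromosome 2, a transcript of 102 nt was at 39627 and 283942 FPKM on 3 and 11 fragments. The pseudogene Txn-ps1 of the thioredoxin gene had 6 fragments (79253 FPKM) in floxed cells, while deficient cells had a listed value of 0. A transcript overlapping Atp5c1-ps, a copy of an ATP synthase subunit gene, was at 76564 and 163242 FPKM on 10 and 11 fragments, so its log2 FPKM fold of 1.09 stood beside a log2 fragment fold of 0.08.

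A few of the highest were carried by many fragments. The transcript in Gm14706, whose sequence is given beside Rps27l, was at 14496 FPKM on 70 fragments in the floxed and 110745 FPKM on 310 fragments in the deficient library. Its bounds were far apart, 11031 to 17962 and 98166 to 123325 FPKM. Overlapping Gm4754 on chromosome 5, a transcript of 110 nt was at 44599 and 145054 FPKM on 43 and 74.5 fragments. The opposite direction was seen at chr1:104524783-104524904, in no annotated gene, with 100413 FPKM on 542.5 fragments in the floxed and 30227 FPKM on 95.5 fragments in the deficient library. By fragments the largest member was Gm7266, the Rpl32 copy, with 4348 and 4005 fragments (36875 and 39777 FPKM). It and Rpl32 itself (5403 and 4029 FPKM) both lay within 2-fold between the libraries.

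For the comparison of deficient with floxed cells, 691 short transcripts had at least 1 FPKM in at least 1 library. With a pseudocount of 1 FPKM, 259 of them (37.5%) were at least 2-fold higher in the deficient library and 191 (27.6%) at least 2-fold lower. Over all 17280 transcripts kept by the same filter, 44.2% were higher and 9.39% lower. Their median log2 fold was 0.17, against 0.87 over all kept transcripts. Relative to the median transcript of at least 300 nt, which was itself higher by 0.87, the split turned to 135 higher and 312 lower (13.3% and 18.2% over all transcripts). Deposited bounds that did not overlap left 161 higher and 103 lower, where all transcripts gave 41.4% and 8.37%. In implied fragments, scaled by the library totals, 200 were higher and 210 lower, with a median log2 fragment fold of -0.10. Over all kept transcripts 55.5% were higher and 11.4% lower by that measure. Of the 259 higher by FPKM, 59 were not 2-fold higher by fragments, and no transcript was called in opposite directions. The fragment fold adds 1 fragment where the FPKM fold adds 1 FPKM, so the measures are unlike at low numbers. By fragments, 0 in the floxed against 1 in the deficient library gave 0.95, just under a call. The reverse gave -1.05, a call.

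The fold depended on length in both measures. The median log2 FPKM fold was 1.70 for the 37 kept transcripts of 101 to 119 nt, 1.11 for 120 to 139 nt and 0.77 for 140 to 159 nt. It was -0.41 for 160 to 179 nt and for 180 to 199 nt, then 0.20 for 200 to 249 nt and 0.79 for 250 to 299 nt. In fragments the same classes had medians of 0.73, 0.37, 0.30, -0.63, -0.58, 0.07 and 0.73. The measures stood 0.97 apart at the short end and nearly met at the long end, and the dip between 160 and 199 nt was present in both.

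**Figure D4:**
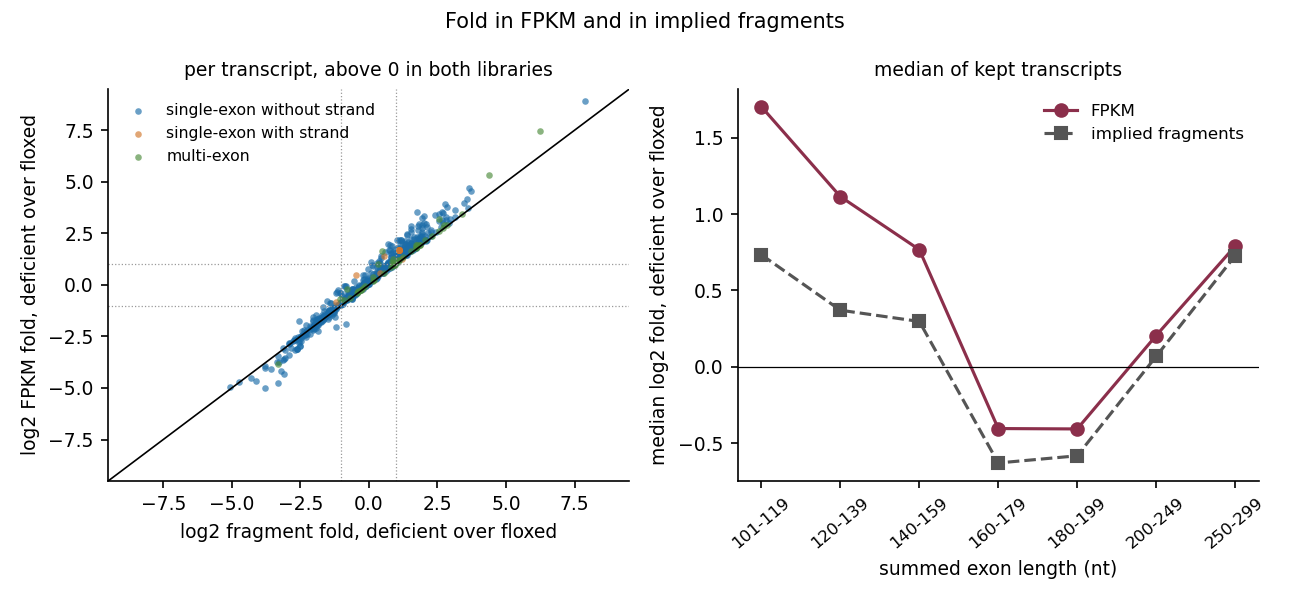
Left, log2 FPKM fold (deficient over floxed) against log2 fragment fold for the 621 kept short transcripts above 0 in both libraries, coloured by kind, with a black line of equal values and dotted lines at 2-fold. Right, median folds of kept transcripts by length class, from 1.70 (FPKM) and 0.73 (fragments) at 101 to 119 nt through a low of -0.41 and -0.63 at 160 to 179 nt.

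Strandless transcripts made up 612 of the 691, with 210 higher and 183 lower by FPKM and a median log2 fold of -0.04. Strandless transcripts of at least 300 nt had 565 of 1287 higher (43.9%), 77 lower (5.98%) and a median of 0.89. Of the 620 short ones, 570 could be placed on the later annotation. Of these, 131 (23.0%, exact 95% interval 19.6 to 26.7%) lay inside an annotated pseudogene and 42 (7.37%) in a protein-coding gene. A further 66 (11.6%) lay in another gene, and 331 (58.1%) lay in no gene. A transcript counted as in a gene only when it lay wholly inside it. The group in no gene thus also holds transcripts that overlap a gene or pseudogene in part, such as those over Gm4754 and Atp5c1-ps. Strandless transcripts of 300 nt or more lay in pseudogenes at a share of 19.5% (17.5 to 21.7%) and in protein-coding genes at 24.0% (21.9 to 26.3%). These intervals cover counting error only. Inside introns of the assembled transcripts, on either strand, lay 2 of the 620 short and 110 of the 1554 longer strandless transcripts (7.08%).

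The places differed in direction. As background, 44.2% of all kept transcripts were higher and 9.39% lower by FPKM, and 55.5% and 11.4% by fragments. Of 129 kept transcripts in pseudogenes, 85 were higher and 6 lower by FPKM, with a median log2 fold of 1.47, and 65 were higher and 6 lower by fragments, with a median of 1.04. Of 327 kept transcripts in no gene, 73 were higher and 116 lower by FPKM (median -0.48), and 57 higher and 128 lower by fragments (median -0.65). In other genes, 17 of 66 were higher and 30 lower, and in protein-coding genes 14 of 41 were higher and 17 lower. The pseudogene transcripts thus had a median fragment fold near that of all transcripts of at least 300 nt (1.22), while the other places lay below it. In pseudogenes the share of higher calls by fragments did not exceed that of all kept transcripts. Length went with place: 30.5% of the transcripts in pseudogenes had 160 to 199 nt, against 58.3% of those in no gene. Among transcripts in no gene, those of 160 to 199 nt had a median log2 FPKM fold of -0.56 (33 higher and 77 lower of 191) and those of other lengths -0.23 (40 higher and 39 lower of 136). Fragment numbers were whole for 75.4% of the pseudogene transcripts and 54.4% of those in no gene in the floxed library, and for 76.6% and 57.1% in the deficient library. The part of length or of shared fragments in the difference was not tested.

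For 62 short transcripts in pseudogenes, 60 of them strandless and 2 with a strand, the stretch could be read from the annotated pseudogene and compared with all annotated coding transcripts. The 60 strandless ones were kept, and the 2 others were not. Every stretch had a coding gene that matched 95.7% to 98.96% of its bases, and none matched 100%. The closest match lay wholly within coding sequence for 60 of the 62. The 62 stretches pointed to 58 genes, and 10 of them to proteins of the cytoplasmic ribosome. By FPKM 39 of the 60 kept stretches (65%) were higher and 1 lower, where all transcripts gave 44.2% and 9.39%. By fragments 32 (53.3%) were higher and 1 lower, where all transcripts gave 55.5% and 11.4%, so the share of higher stretches was near the background by that measure.

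For stretches with at least 20 fragments in 1 library, the fold was mostly close to that of the coding gene each resembles. Over the 32 stretches with at least 20 fragments in 1 library and a named gene of at least 1 FPKM (30 genes), the log2 fragment fold of the stretch and the log2 FPKM fold of the gene were correlated at 0.83 by Pearson's r and 0.80 by Spearman's rho. These values describe points that share both libraries and near-identical sequence, so they are not independent measurements. Of the 32, 30 lay within 2-fold of their gene, and the median difference was 0.003 on the log2 scale. In Gm14857 the transcript had 3 and 28 fragments (log2 fragment fold 2.81), and Ipo5, a nuclear import receptor gene, was at 9.08 and 68.9 FPKM (log2 FPKM fold 2.79). Beside Gm14706, with a log2 fragment fold of 2.09, Rps27l was at 382 and 1460 FPKM (1.93). Atp5k-ps2 had 75 and 60 fragments (-0.36), and Atp5k, an ATP synthase subunit gene, was at 785 and 596 FPKM (-0.40). Gm45113 had 14 and 22 fragments (0.57), and Tomm7 was at 57.6 and 79.3 FPKM (0.45), although the log2 FPKM fold of that stretch was 1.59.

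Among these 32, the exceptions were Gm5855 and Gm13743. Gm5855 had 20.5 and 68 fragments (1.64), and Eno1, the glycolytic enolase gene closest to it, was at 433 and 359 FPKM (-0.27). That stretch matched a further coding gene at 95% or more. Gm13743 had 4 and 27 fragments (2.44), and its closest gene, Rwdd1, was at 6.65 and 19.4 FPKM (1.42). Among all 62 stretches, the 1 called lower was in Psmb6-ps2, a copy of a proteasome subunit gene, with 10 and 2 fragments, while Psmb6 was at 339 and 363 FPKM. Stretches with fewer fragments were not summarised, and they varied. Gm8276, with 0 and 4 fragments (2.28), stood beside Pabpc1 at -0.41, and Gm14897, with 2 and 10 (1.83), beside Yme1l1 at 0.26. Closer was Gm7258, with 4.83 and 10 fragments (0.87), beside Mrps36 at 0.94. How many reads counted at these places came from the coding genes was not tested.

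**Figure D5:**
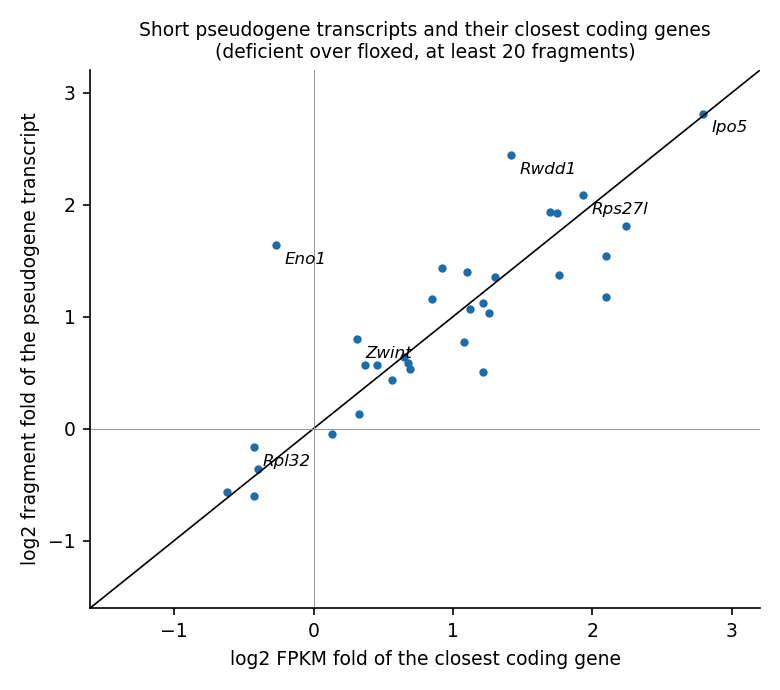
Log2 fragment fold (deficient over floxed) of 32 short pseudogene transcripts with at least 20 fragments in 1 library against the log2 FPKM fold of the closest coding gene, with a line of equal values. All but the stretches closest to Eno1 and Rwdd1 lie within 1 log2 unit of the line.

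The largest folds were taken among members with separated bounds. Among transcripts of at least 50 FPKM in 1 library, above 0 in both and with bounds that did not overlap, the highest was a strandless transcript of 180 nt at chr6:70767249-70767428, in no gene, between Rpia and Eif2ak3. It had 1 fragment (7.04 FPKM) in the floxed and 484 fragments (3907 FPKM) in the deficient library. Next was a short 4-exon transcript of Crip1, which encodes a small LIM-domain protein, at 8.43 and 1658 FPKM (bounds 0 to 35.9 and 1330 to 1987). It shares its locus with longer Crip1 transcripts, so its fragments, 0.869 and 144, depend on how reads were divided among them. The other 4 were strandless: chr2:163645725-163645900, between Ada and Ccn5, had 1 and 25 fragments. The transcript at chr18:7009820-7010004, in Gm46633, had 1.40 and 31.9 fragments. At chr11:87787066-87787254, between Epx and Dynll2, there were 3 and 45.2 fragments, and at chr7:16499232-16499407, between Crxos and Selenow, 0.792 and 11.8.

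At the low end all 6 were strandless and in no gene where they could be placed. The transcript with the most fragments among them, at chr12:11232236-11232426 between Kcns3 and Gen1, had 433 fragments (2262 FPKM) in the floxed and 12.4 fragments (71.7 FPKM) in the deficient library. At chr10:79300494-79300702, between Misp and Ptbp1, 259 fragments (906 FPKM) in the floxed library stood against 9 (33.7 FPKM) in the deficient library. The lowest log2 FPKM fold, -5.02, was at chr19:47647411-47647614 between Stn1 and Slk, with 15.2 and 0.202 fragments. Between Upk3b and Upk3bl, chr5:136526523-136526653 had 11.1 and 0.25 fragments. On chromosome 18, the transcript at 21548413-21548603 had 60.6 and 2.20 fragments and that at 3104602-3104781 had 33 and 1. Among members at 0 in 1 library, 33 kept transcripts were at 0 in the floxed library only, with up to 52.4 fragments in the other, and 37 in the deficient library only, with up to 115. An exact 0 can be a failed estimate. All 70 entered the counts of 259 higher and 191 lower through the pseudocount, and without them 226 were higher and 154 lower.

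MicroRNA hairpins formed the largest annotated class. By start and end, 573 stranded single-exon transcripts matched a hairpin, with lengths from 49 to 134 nt, and 252 of them lay in an intron of a longer transcript on the same strand. The 491 hairpins under 101 nt were all at 0 in both libraries. Of the 82 longer ones, 3 were above 0, and Mir703 alone reached 1 FPKM. Mir686 and Mir763 were at 0.0002 and 3.5e-05 FPKM in the deficient library and at 0 in the floxed library, with 0 implied fragments in both. Mir703, at chr5:98904575-98904683, was at 21586 FPKM on 17 fragments in the floxed and 29982 FPKM on 12.5 fragments in the deficient library. Its bounds overlapped, so the libraries were not separated there. RefSeq (GRCm38.p6) held a hairpin of the same symbol and length for 472 of the 573. The Mir27b hairpin (73 nt, chr13:63402020-63402092) was at 0 in both libraries, as were its neighbours Mir23b and Mir24-1. All 3 lie in an intron of an unnamed host locus, which was at 36.1 FPKM in the floxed and 85.0 FPKM in the deficient library. Mir703 lies within the span of Cfap299, and whether its fragments came from the hairpin or from other RNA over the same place was not tested.

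Small nucleolar and Cajal body RNAs rested on few fragments. Of 104 matched members, 64 were box C/D snoRNAs, 32 box H/ACA snoRNAs and 8 Cajal body RNAs, and 100 of the 104 lay inside introns. Of these, 68 were under 101 nt, where no transcript had a value above 0. Among the 36 longer ones 11 (30.6%) were above 0, 3 in the floxed library alone, 6 in the deficient library alone and 2 in both, and none had more than 1.90 fragments. Snora75, in an intron of the nucleolin gene Ncl, was at 0 and 699 FPKM, and Snora34, in Kansl2, at 0 and 527 FPKM, each on 1 fragment. Snord22, in Snhg1, was at 0 and 202 FPKM, also on 1 fragment. The reverse was seen for Snora26, in Dancr, at 207 FPKM on 1 fragment and then 0, and for Scarna6, in Atg16l1, at 1.86 FPKM on 1 fragment and then 0. In both libraries Snora81, in Eif4a2, was at 6.64 and 19.5 FPKM (0.549 and 1.31 fragments), and Snord17, in Snx5, at 0.935 and 0.976 FPKM. A limit of 3 fragments corresponds at 120 nt to 698 FPKM in the floxed and 1214 FPKM in the deficient library, so differences of this size were not detectable at this depth. Both matched spliceosomal RNAs were at 0.

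Most of the listed genes that make and carry these RNAs reached 1 FPKM in at least 1 library. Of 38 listed snoRNA host genes, 35 were matched and 34 kept, and of these 19 were at least 2-fold higher and 0 lower, with a median log2 fold of 1.35. Over all 8157 kept named genes 42.1% were higher and 4.03% lower. Snhg1 was at 18.6 and 99.6 FPKM (log2 fold 2.36), Ncl at 15.5 and 71.5 FPKM (2.14) and Gas5 at 556 and 1665 FPKM (1.58), while Hspa8 was at 1650 and 972 FPKM (-0.76). Among proteins bound to box C/D snoRNAs 3 of 4 were higher, with Nop58 at 93.3 and 392 FPKM (2.06). Another of the 3, Fbl, was at 0.115 and 1.62 FPKM (1.23), so it passed the filter in the deficient library only. Of 3 kept box H/ACA proteins 2 were higher, with the pseudouridine synthase gene Dkc1 at 19.4 and 71.9 FPKM (1.84). For microRNA processing 2 of 6 were higher, Xpo5, which encodes the hairpin export receptor (6.51 and 20.2 FPKM, 1.5), and Tarbp2, which encodes a Dicer partner (1.06 and 4.35 FPKM, 1.38). Drosha was at 1.16 and 2.84 FPKM (0.83), and Dicer1 stayed under 1 FPKM. Relative to the median transcript of at least 300 nt, which was higher by 0.87 on the log2 scale, 7 of the 34 host genes were 2-fold higher and 3 lower. By the same measure 1 of 4 box C/D proteins was higher, 0 of 3 box H/ACA proteins were higher and 1 was lower, and 0 of 6 microRNA processing genes were called. Stromal markers were present for 9 of 12 genes, among them Col1a1 (173 and 191 FPKM) and Vcam1 (59.9 and 60.2 FPKM), but Eng, Thy1 and Lepr stayed under 1 FPKM. All 5 leukocyte markers were at 0, and no endothelial or erythroid marker reached 1 FPKM.

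Most intronic members were under 101 nt, where no short transcript of any kind was above 0. In all, 415 short transcripts (27.6%, exact 95% interval 25.3 to 29.9%) lay inside an intron of a longer transcript on the same strand, and 414 of these were stranded single-exon transcripts. Strandless transcripts could not count under that rule, since they carry no strand. Of the 415, 333 were under 101 nt, and 14 of the 82 longer ones (17.1%) were above 0, 12 of them at 1 FPKM or more. Outside introns, 16 of 74 stranded single-exon transcripts of that length (21.6%) were above 0. Of these 16, however, 10 were the transcripts of 174 nt at chr6:47604920-47702924 described below, which had identical values of 1.9 and 5.4 fragments each. The shares inside and outside introns are thus not counts of separate signals and were not compared further. The 415 lay in 263 host loci, 172 of which were at 1 FPKM or more in at least 1 library and held 219 of the short transcripts. The host with the most was Sfmbt2, a Polycomb group gene on chromosome 2, with 72 short transcripts of 71 to 127 nt in its introns. All 72 were at 0, and Sfmbt2 was at 0.147 and 0.154 FPKM. Unnamed loci at chr12:110842155-110899921 and chr12:110973191-110987667 followed with 10 and 7, all at 0 as were the hosts themselves.

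Few stranded single-exon transcripts outside the snoRNA and microRNA classes carried signal. At chr6:47604920-47702924 lay 10 transcripts of 174 nt, of which 1 matched Rn4.5s, the gene of the rodent 4.5S RNA. All 10 had the same values, 16.1 and 53.6 FPKM, or 1.9 and 5.4 fragments each, summing to 19 and 54 fragments. A transcript of 255 nt in Dcps, the scavenger decapping enzyme gene, had 27.5 and 66.4 fragments (46.9 and 115 FPKM). Within Ndufa1, a subunit gene of respiratory complex I, a transcript of 158 nt had 96.2 and 42.2 fragments (1488 and 826 FPKM). Another in the same gene, of 194 nt, had 115 and 156 fragments (556 and 832 FPKM). Neither FPKM difference reached 2-fold, and the values of the pair lay in different directions. By fragments the transcript of 158 nt was more than 2-fold lower (log2 fragment fold -1.21), and that of 194 nt was at 0.39.

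Of the multi-exon short transcripts 52 were kept, of which 29 (55.8%) were higher by FPKM and 4 lower, where all transcripts gave 44.2% and 9.39%. By fragments 22 (42.3%) were higher and 5 lower, under the 55.5% higher and 11.4% lower of all transcripts. The highest mean was that of a 2-exon transcript of 173 nt at chr9:44182751-44183323, which overlaps Gm10080, with 5573 and 12199 FPKM on 636 and 1184 fragments. The next, at chr11:100223121-100223477 over Gm10039, was at 2663 and 6439 FPKM. A transcript with exons that sum to 138 nt but span chr5:146384054-146578372 was at 4363 and 3799 FPKM, with bounds that overlapped. Of the coding genes, a short isoform of Rpl7, a ribosomal protein gene, had the most fragments, 916 and 1959 (1753 and 3840 FPKM, bounds apart). Rplp2, which encodes a ribosomal stalk protein, had a short isoform at 138 and 945 FPKM, and Ranbp1, a Ran-binding protein gene, at 27.2 and 310 FPKM. The Rpl7, Rplp2 and Ranbp1 loci hold 3 to 5 transcripts each, so the reads of these isoforms were divided with others. Atp5k, the only transcript of its locus, was at 785 and 596 FPKM on 684 and 519 fragments, a difference under 2-fold. Of 13 multi-exon transcripts over genes whose symbol starts with Def, the prefix of defensin genes, 1 was above 0.

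At the length limit itself, the transcripts just inside were one in Gm13176 (299 nt, 2.16 and 15.1 FPKM on 2 and 14 fragments) and one of Tmsb15a (299 nt, 0 in both). Just outside were one of Mrps18a (300 nt, 95.9 and 206 FPKM) and one in Gm7407 (300 nt, 114 and 147 FPKM). At that length 1 fragment was worth about 1.08 FPKM, so values on either side of the limit are on nearly the same scale.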

How the data were processed

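RNA sequencing of 2 libraries was analysed, 1 per genotype label. The deposited files list FPKM per transcript, its bounds and coverage in an attribute field (treated as text of unit other). Per the submitters' processing notes, the tools were TopHat2 2.0.5, Cufflinks 2.0.2 and Cuffdiff 2.0.2 on build mm9, with no role stated. How strand and multiply placed reads were handled, and which annotation was used, is not given in the sources used here.

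Exon lengths were summed per transcript, and those under 300 nt were kept as members. The members, gene lists and tests were chosen with earlier results of these data known. Folds are log2(FPKM + 1), deficient minus floxed, among transcripts of at least 1 FPKM in 1 library. They understate changes of low transcripts. A call means 2-fold by size. With 1 library a group, no difference between groups was tested. Implied fragments, added after the data were seen, came from the upper bounds of single-transcript loci, extended by a curve of FPKM per fragment against length. That curve met the upper bounds within 2% for every whole-valued short transcript (359 and 381). It was built from whole-valued transcripts that include these, so the agreement is no independent check, and values at fractions were not part of it. The fragment fold adds 1 fragment and is scaled by fitted library totals of 9.05 M (floxed) and 9.34 M (deficient) fragments. Fragments are not independent molecules, so intervals and limits cover counting error only.

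Names were inferred by matching chains of intron and internal exon lengths of at least 3 exons to GENCODE M21 (GRCm38). Of 37034 such transcripts, 25511 matched 1 place. No coordinate was converted: a short transcript was placed (1416 of 1505) where its distances to the flanking matched splice junctions were equal in both annotations, and named (710) where both ends met a gene's. At positions displaced by 100 or 1000 nt, 0 matched. The pseudogene stretches are the annotated pseudogene's bases at those distances and were compared with coding transcripts by BLAST+ 2.17.0. All coordinates are those of the files (mm9). Transcripts to name were set by a rule: the 6 highest FPKM in each library, the 6 highest and 6 lowest folds of at least 50 FPKM with bounds apart, up to 4 of each small RNA class and of multi-exon transcripts, and the 3 hosts with the most intronic members. Pseudogenes, Gm7266, Mir27b, isoforms beyond those 4, Rn4.5s, and the Dcps, Cox6a2 and Ndufa1 transcripts were named after their values were seen. The scripts for fragment recovery and calls were run on simulated counts with known answers, from which no value is quoted. Python 3.11.15 with numpy 2.4.6, pandas 2.3.3, scipy 1.17.1 and matplotlib 3.10.9 was used. Alternatives are listed in the closing section.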

Additional observations from a re-analysis of the deposited data

How the results depend on the processing

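No paired analysis was possible because each group has 1 library, and for the same reason no replicate could be left out. The 259 higher and 191 lower short transcripts stayed within 1.5 times of these counts with pseudocounts of 0.1 and 5 FPKM, without a filter, with a filter of 5 FPKM, with coverage, with TPM over longer transcripts, with limits of 200 and 400 nt, without members at 0 in 1 library, for single-exon members, at 1.5-fold and in implied fragments. They moved to 135 and 312 (median -0.70) when centred on the median transcript of at least 300 nt, and to 103 and 344 (median -0.99) with TPM over all transcripts. They were 117 and 102 at 4-fold, 161 and 103 with bounds apart, and 121 and 74 with at least 20 implied fragments (chosen after seeing the data). Inside introns, where only 12 transcripts enter, they were 8 and 4 (median 4.76). Those 12 had at most 1.90 fragments in either library, and all but Snora81 were at 0 in 1 library. Their log2 fragment folds were at most 0.95, so none was called higher by fragments. The median turned from 0.17 to -0.10 in implied fragments. The share of FPKM became 39.4% (floxed) and 49.9% (deficient) without the 10 highest members and 0.551% and 0.498% in implied fragments. The share by coverage times length became 4.24% and 6.06% without its 10 highest members, and the cause was not tested. Limits of 200 and 400 nt and leaving out chromosome M left the shares, and either strand or a longer host left the 415 intronic members, within 1.5 times. Of 35 named transcripts, 7 lost their 2-fold call and 1 gained it when centred, 9 lost it in implied fragments, 1 lost it at a pseudocount of 5 FPKM, and no 2-fold call turned direction. Below 2-fold, Mir703 turned from 0.47 to -0.40 when centred and -0.46 in implied fragments, and Snord17 from 0.03 to -0.84 when centred, -0.03 with coverage and -0.05 in implied fragments, while Mir686 and Mir763, both near 0, turned negative when centred and in implied fragments. Depth limits members near 101 nt most, where 3 fragments correspond to 86778 FPKM in the floxed and 173204 FPKM in the deficient library, and 48 kept members had under 4 fragments in both.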
